A study of Mus musculus with 12 samples.

Results

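The 6 hippocampi collected in the subjective night, at circadian times CT12 and CT18, were compared with the 6 collected in the subjective day, at CT0 and CT6. All 12 libraries of the series entered this comparison, 6 in each phase and 3 at each circadian time, and membership was taken from the sample titles alone. All mice were wild-type adult males kept in constant darkness, and RNA of the hippocampus of 1 mouse was hybridised to each 1-colour Agilent array. The night mice had spent 48 h (CT12, mice 10, 11 and 12) or 30 h (CT18, mice 14, 15 and 16) in darkness, and the day mice 36 h (CT0, mice 1, 2 and 3) or 42 h (CT6, mice 5, 6 and 7). The mean time in darkness was therefore 39 h in the night phase and 39 h in the day phase. The question was which genes held one level over both night times and another over both day times.

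In constant darkness circadian time is counted from the clock of the animal, with CT0 at the start of the subjective day and CT12 at the start of the subjective night, the active phase of a nocturnal mouse. The mammalian clock is a transcriptional loop in which Clock, Npas2 and Arntl (Bmal1) act on E-box elements and drive their own repressors, the Per and Cry genes, while Nr1d1 and Nr1d2 (the Rev-erbs) repress Arntl. Corticosterone, temperature and feeding also follow the activity cycle of the animal and drive rhythmic transcripts in many tissues. A transcript with one peak a day need not be level within the night or the day: a peak near dusk or near mid-night splits the times of the same phase.

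Signals are log2 processed intensities relative to the 75th percentile of the array, so they are levels within one probe and are not compared between genes. Of the 59305 spots of an array, 77.1% lay well above background in CT0 mouse 3 and 59.3% to 67.1% in the others, and 0 were saturated. CT12 mouse 11 stood apart: its correlation with the other arrays over all genes was 0.945 to 0.965, against at least 0.984 among the other 11. Relative to the mean over all libraries, the median of 7 markers of excitatory neurons was -4.21 in CT12 mouse 11, against -0.22 to 0.59 elsewhere. The median of 10 markers of the cerebellum was 3.85 in it, against -0.71 to -0.26 elsewhere. It therefore goes against its hippocampal label, and the main results below were repeated without it. Values given alone are from all 12 libraries unless said otherwise. The median of 8 markers of thalamus and habenula was 0.78 in CT12 mouse 10 and 0.75 in CT12 mouse 11, against -0.33 to 0.02 elsewhere. CT12 mouse 10, which also had the excitatory median of -0.22, stays in the repeat. In the day phase, 8 striatal markers had a median of 1.08 in CT6 mouse 6, against -0.41 to 0.33 elsewhere. The median of 10 choroid plexus markers was high in CT12 mice 10 and 11 (3.46 and 1.84) and CT18 mouse 14 (2.68) of the night phase, and in CT0 mouse 1 (3.81) and CT6 mouse 7 (2.71) of the day phase. It lay between -2.35 and -1.87 in the other 7. In a whole tissue, fewer cells of a type and less RNA per cell cannot be told apart.

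Few genes differed between the phases beyond the spread among mice of the same time. With limma, 8 of 24090 genes (0.0332%) passed an adjusted p of 0.05 (Benjamini-Hochberg over all genes). Of these, 7 were higher at night (0.0291%), namely Fam83d, Plin4, Maff, Tsc22d3, Sdf2l1, Per2 and Dok7. Lrrc29 was lower (0.00415%). Without CT12 mouse 11, 22 genes passed (0.0913%), 13 higher (0.054%) and 9 lower (0.0374%) at night, and these included all 8. At an unadjusted p of 0.05 there were 1868 genes with all libraries, 2.95% of all genes higher and 4.81% lower at night. Without CT12 mouse 11 there were 2036, 3.15% higher and 5.3% lower. The median night minus day difference over all genes was -0.02, or -0.01 without that library. The p-values measure the spread between mice.

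A gene was said to hold its level when it was called and when both CT18 minus CT12 and CT6 minus CT0 were smaller than 0.5 of its night-day difference. Only 3 of the 8 did so: Fam83d, Dok7 and Per2. Without CT12 mouse 11, 6 of 22 did so, of which 2 (Fam83d and Dok7) were shared with the 3, and Per2 lay just outside (CT18 minus CT12 0.32, against a limit of 0.318). A stricter form of the question gives each phase a single mean, so that differences between its times count as error. In that limma fit 2 genes passed with all libraries, Fam83d (adjusted p = 0.0286) and the transcript ENSMUST00000099035 (adjusted p = 0.0383). Without CT12 mouse 11 Fam83d did not pass in the same limma fit (adjusted p = 0.05005). The Fam83d probe was not well above background on any day array, so its call, its held level and its fitted difference rest on day values that are no measured signal.

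**Figure D1:**
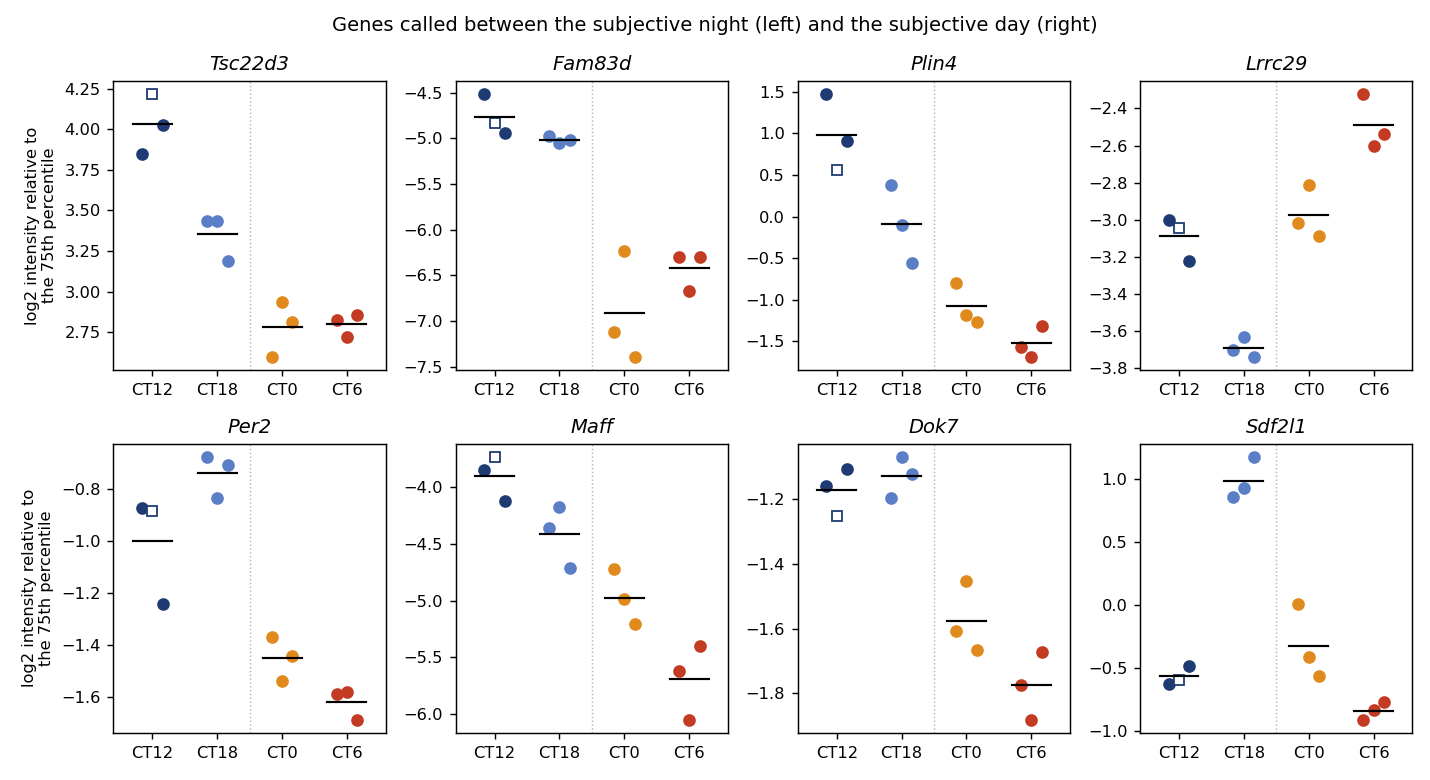
Level of each of the 8 called genes in every library (log2 intensity relative to the 75th percentile of the array), with the night times CT12 and CT18 left and the day times CT0 and CT6 right of the dotted line. Points are mice, bars are means of 3 mice, and the open square is CT12 mouse 11. Per2 and Dok7 sit at 2 levels, the day values of Fam83d are not well above background, and Sdf2l1 is high at CT18 and lies between -0.62 and -0.48 at CT12.

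Fam83d, which recruits a casein kinase to the mitotic spindle in dividing cells, was detected on the night arrays alone. Its measured value was -4.51, -4.83 and -4.94 in the CT12 mice and -4.97, -5.05 and -5.01 in the CT18 mice, against -7.12, -6.24 and -7.40 in the CT0 mice and -6.30, -6.67 and -6.29 in the CT6 mice. Every night value lay above every day value. Its probe was well above background on 6 of 6 night arrays and on 0 of 6 day arrays, so the day level is a bound: Fam83d was at least 1.65-fold higher at night (limma, adjusted p = 0.0215, and 0.0238 without CT12 mouse 11). It entered the test only through the night arrays and was not tested among probes well above background on all 12 arrays. It belonged to a list of 15 measured genes of DNA replication and cell cycle, of which it was the only one called (against 0.0291% of all genes called higher). The median difference of that list was 0.05.

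Dok7, an adaptor that activates the muscle receptor kinase MuSK at the neuromuscular junction, was the other gene that held its level with and without CT12 mouse 11. It stood at -1.16, -1.25 and -1.11 in the CT12 mice and -1.20, -1.07 and -1.12 in the CT18 mice, against -1.61, -1.45 and -1.67 in the CT0 mice and -1.77, -1.88 and -1.67 in the CT6 mice. The phases did not overlap. The difference was 0.52 ± 0.07 (SE, limma, adjusted p = 0.0487). CT18 exceeded CT12 by 0.04, and CT6 lay below CT0 (CT6 minus CT0 -0.20, against a limit of 0.262).

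Tsc22d3, Plin4 and Maff were higher at night and had every night value above every day value, but did not meet the condition for a held level. None of the 3 passed the F test within the phases (limma, adjusted p from 0.164 to 0.259). Tsc22d3 (GILZ) is a transcriptional regulator induced by glucocorticoids. It stood at 3.85, 4.22 and 4.03 in the CT12 mice and 3.44, 3.43 and 3.19 in the CT18 mice, against 2.60, 2.94 and 2.81 in the CT0 mice and 2.82, 2.72 and 2.86 in the CT6 mice. It was 0.90 ± 0.09 higher at night (limma, adjusted p = 0.0215), higher in 6 of 6 night mice than in any day mouse. The day times differed by 0.02, while CT18 lay 0.68 below CT12 (CT18 minus CT12 -0.68).

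Plin4 encodes a coat protein of lipid droplets. Its level was 1.47, 0.56 and 0.91 in the CT12 mice and 0.38, -0.10 and -0.56 in the CT18 mice, against -0.80, -1.18 and -1.27 in the CT0 mice and -1.57, -1.69 and -1.31 in the CT6 mice. The groups did not overlap, and the difference was 1.75 ± 0.19 (limma, adjusted p = 0.0311). Maff, a small Maf transcription factor of the immediate-early type, stood at -3.85, -3.73 and -4.12 in the CT12 mice and -4.36, -4.17 and -4.71 in the CT18 mice, against -4.72, -4.99 and -5.21 in the CT0 mice and -5.62, -6.05 and -5.40 in the CT6 mice. It was 1.17 ± 0.15 higher at night (limma, adjusted p = 0.0411), with its probe well above background on 6 of 6 night and 2 of 6 day arrays. Maff thus entered the test through the night arrays and was not tested among probes well above background on all 12. Its night times differed by less than its limit and its day times by more (CT6 minus CT0 -0.72, against a limit of 0.587).

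Lrrc29, a leucine-rich repeat protein, and Sdf2l1, a chaperone partner of the endoplasmic reticulum, passed on their phase means although the values of 1 night time overlapped those of the day. Lrrc29 stood at -3.0, -3.04 and -3.22 in the CT12 mice and -3.70, -3.63 and -3.74 in the CT18 mice, against -3.02, -2.81 and -3.09 in the CT0 mice and -2.32, -2.60 and -2.54 in the CT6 mice. It was lower at night by a difference of -0.66 ± 0.08 (limma, adjusted p = 0.0409), and CT12 overlapped CT0. The night-day difference was -0.12 between CT12 and CT0 and -1.20 between CT18 and CT6, and the test of these against each other gave an adjusted p of 0.0304 in limma.

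**Figure D2:**
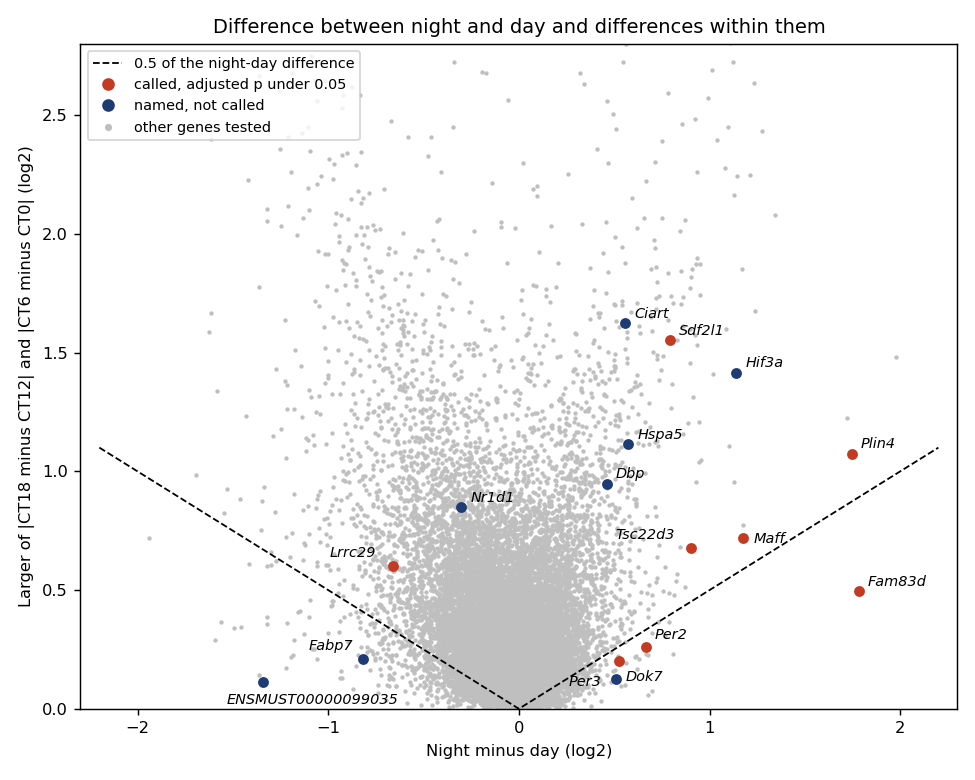
Each grey point is 1 of the 24090 genes; the x axis gives night minus day (log2) and the y axis the larger of the differences between the times of the same phase (log2). Genes under the dashed line meet the condition for a held level; 28 genes lie outside the axes. Fam83d, Per2 and Dok7 are called and under the line, and Sdf2l1 is called far above it.

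In the same fits, 27 genes (0.112%) differed between the times of a phase by the limma F test on CT18 minus CT12 and CT6 minus CT0, 18 (0.0747%) without CT12 mouse 11. Of the 8 genes called between the phases, Sdf2l1 was among the 27. The night-day difference of CT12 and CT0 departed from that of CT18 and CT6 in 55 genes (0.228%). Without CT12 mouse 11 it did so in 159 (0.66%). The hours in darkness differ between these times as well: 48 h at CT12 and 36 h at CT0, but 30 h at CT18 and 42 h at CT6. In the F test and in the test of the opposite pairs, circadian time and time in darkness cannot be told apart. A complete separation of the single values, all 6 night libraries above all 6 day libraries, was seen for 78 genes (0.324%), and the reverse for 87 (0.361%). Without CT12 mouse 11, which leaves fewer night values to separate, these counts were 97 (0.403%) and 156 (0.648%).

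Of the core clock genes 2 differed within a phase by the limma F test: 2 of 10 clock repressors (Ciart and Nr1d1, against 0.112% of all genes), 0 of 4 activators and 0 of 7 D-box and ROR factors. Of the 10 measured clock repressors (Per, Cry, Rev-erb, Bhlhe and Ciart genes), 8 had positive night minus day differences, against 43.7% of all genes. Among them 1, Per2, was called (0.0291% of all genes were called in that direction). The list's median was 0.38, or 0.33 without CT12 mouse 11. None of the 4 activators Arntl, Arntl2, Clock and Npas2 was called, and their median was -0.29, or -0.16 without CT12 mouse 11. None of the 7 D-box and ROR factors was called, and their median was 0.18.

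Per2, a period gene that represses Clock and Bmal1, rose at night to -0.87, -0.88 and -1.24 in the CT12 mice and -0.68, -0.83 and -0.71 in the CT18 mice, against -1.37, -1.54 and -1.44 in the CT0 mice and -1.59, -1.58 and -1.69 in the CT6 mice. The phases did not overlap. The difference was 0.66 ± 0.08 (limma, adjusted p = 0.0409, and 0.0375 without CT12 mouse 11). Its paralogue Per3 had the most even profile of the clock repressors that did not pass: -1.68, -1.33 and -1.59 in the CT12 mice and -1.71, -1.58 and -1.55 in the CT18 mice, against -2.02, -2.33 and -2.09 in the CT0 mice and -1.99, -1.98 and -2.08 in the CT6 mice. The difference was 0.51 ± 0.08 (limma, adjusted p = 0.0946), and 96.0% of the variation between its 4 time means lay between the phases. Per1 differed by 0.30 ± 0.09 (limma, adjusted p = 0.45).

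Ciart, a repressor of Clock and Bmal1, gave the opposite picture. It stood at -2.08, -1.89 and -1.98 in the CT12 mice and -3.53, -3.78 and -3.52 in the CT18 mice, against -3.66, -4.17 and -3.68 in the CT0 mice and -2.83, -3.01 and -2.76 in the CT6 mice. The 2 times of the night lay on either side of CT6. The phase means differed by 0.56 ± 0.10 (limma, adjusted p = 0.159), with 14.8% of the variation between times lying between the phases. CT12 minus CT0 was 1.85 and CT18 minus CT6 was -0.74, and these differed by 2.59 (limma, adjusted p = 0.00472). Nr1d1 had differences of 0.51 and -1.11 for the same pairs (adjusted p = 0.00677 in limma), and Dbp, a D-box activator of clock output, of 1.38 and -0.45 (adjusted p = 0.0218 in limma). For all 3 the phase means hide opposite differences.

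Arntl was lower in the night mean without passing, by a difference of -0.41 ± 0.08 (limma, adjusted p = 0.171). It stood at 0.49, 0.48 and 0.65 in the CT12 mice and 0.90, 0.91 and 0.98 in the CT18 mice, against 1.04, 1.41 and 1.31 in the CT0 mice and 1.09, 1.11 and 0.92 in the CT6 mice. CT18 overlapped CT6. Cry1, a cryptochrome repressor, differed by 0.84 ± 0.18 (limma, adjusted p = 0.219) and Nr1d2 by 0.46 ± 0.09 (limma, adjusted p = 0.207). The difference of Npas2 (-0.75) became -0.28 without CT12 mouse 11. Rora differed by 0.51 and Arntl2 by -0.17, and these became 0.30 and -0.04 without that library. Clock, Cry2, Rorb, Nfil3, Bhlhe40, Bhlhe41, Tef and Hlf lay between -0.01 and 0.18.

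**Figure D3:**
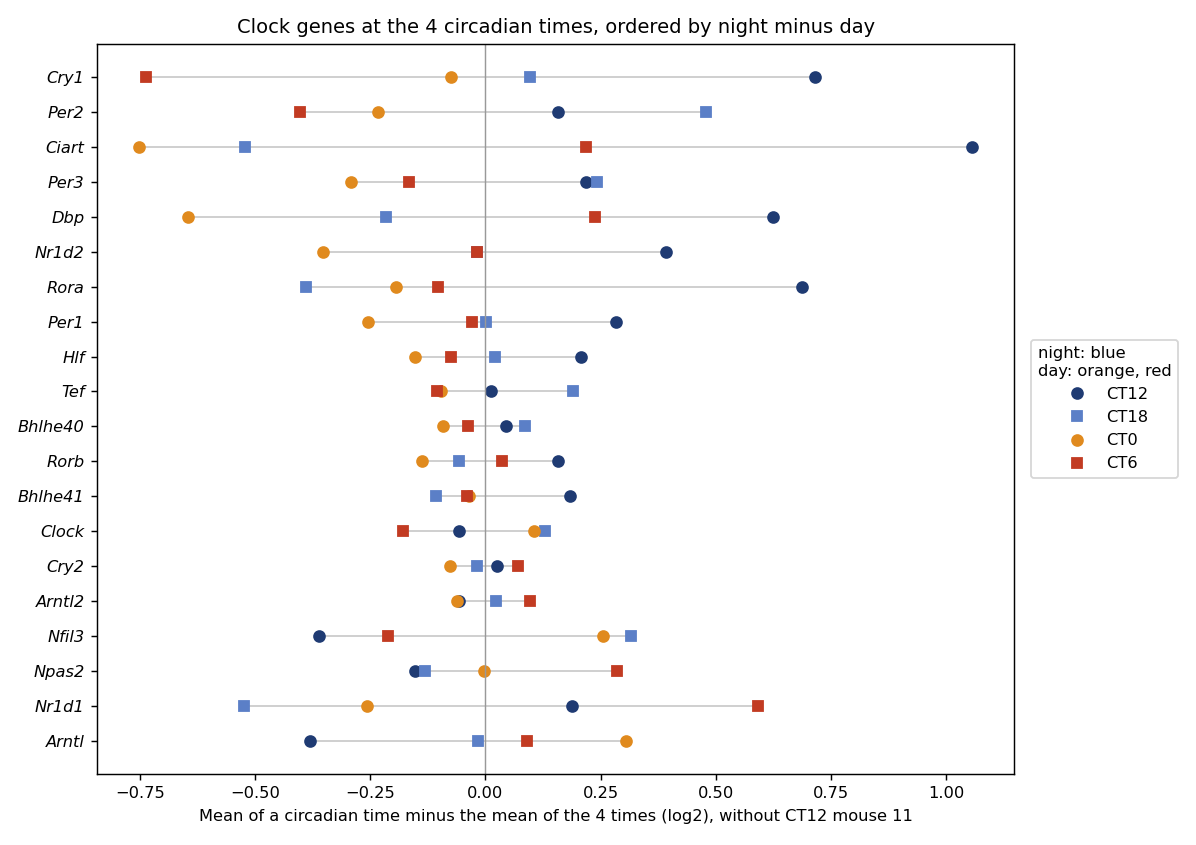
Mean of each circadian time minus the mean of the 4 times (log2) for 20 clock genes, without CT12 mouse 11, ordered by night minus day. Blue marks are the night times CT12 and CT18, orange and red marks the day times CT0 and CT6. Per2 and Per3 have both night means right of both day means, while Ciart, Dbp and Nr1d1 have CT12 and CT6 together on the right.

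The promoters of Per3 and Ciart are shown because they carry motifs of the clock loop and belong to genes with an even and an uneven profile. Both give the 250 bases before the RefSeq start on GRCm38.p6, on the strand of the gene. They were chosen, with those of Hspa5 and Sdf2l1 further on, after 6 motifs had been searched on both strands in the windows of 18 genes. Per3 (chr4:151044666-151044915, minus strand) has 2 matches to the D-box TTATGTAA, in capitals, starting 205 and 158 bases before the start. Ciart (chr3:95882229-95882478, minus strand) has 3 matches to the E-box CACGTG, in capitals, at 116, 58 and 44 bases.
Per3: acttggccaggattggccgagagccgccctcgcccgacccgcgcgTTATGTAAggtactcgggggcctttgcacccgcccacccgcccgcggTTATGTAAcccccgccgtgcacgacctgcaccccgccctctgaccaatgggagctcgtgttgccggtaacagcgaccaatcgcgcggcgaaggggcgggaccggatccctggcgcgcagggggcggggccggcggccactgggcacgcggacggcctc
Ciart: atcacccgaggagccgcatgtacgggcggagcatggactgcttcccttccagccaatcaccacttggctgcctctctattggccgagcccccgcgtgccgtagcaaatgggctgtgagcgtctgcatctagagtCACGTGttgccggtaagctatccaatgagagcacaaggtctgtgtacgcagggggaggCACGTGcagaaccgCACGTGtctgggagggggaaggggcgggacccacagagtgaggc
Of 32851 RefSeq windows of this length, 0.819% hold this D-box and 6.02% this E-box. Among 8 clock repressors with a window, 1 held the D-box (Per3) and 4 the E-box (Bhlhe41, Ciart, Cry1 and Per1). Dbp and Nr1d1, whose profiles were also uneven, were among the 18 genes searched and held none of the 6 motifs. Whether a motif goes with a profile was not tested. A match describes the letters and is not a measured binding site.

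Chaperones of the endoplasmic reticulum, which fold secreted and membrane proteins, had mostly positive night minus day differences, of which 1 passed. Of 30 measured genes of this list, 28 had positive differences, against 43.7% of all genes. Only Sdf2l1 was called higher (against 0.0291% of all genes) and none lower. The median was 0.18, or 0.14 without CT12 mouse 11. The median difference was -0.03 between CT12 and CT0 and 0.35 between CT18 and CT6. By the F test within the phases 5 of 30 passed in limma (against 0.112% of all genes), and the opposite pairs differed for 8 (against 0.228%). Without CT12 mouse 11 these counts were 2 (against 0.0747% of all genes) and 9 (against 0.66%).

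Sdf2l1 stood at -0.62, -0.59 and -0.48 in the CT12 mice and 0.86, 0.93 and 1.18 in the CT18 mice, against 0.01, -0.41 and -0.56 in the CT0 mice and -0.91, -0.83 and -0.77 in the CT6 mice. CT12 lay within or below the CT0 values, and CT18 above all others. The night-day difference was 0.79 ± 0.10 (limma, adjusted p = 0.0495), while CT18 exceeded CT12 by 1.55 (limma F test within the phases, adjusted p = 0.0133). Hspa5 (BiP), the main chaperone of this compartment, had the same order: 3.99, 4.19 and 4.18 in the CT12 mice and 5.15, 5.17 and 5.38 in the CT18 mice, against 4.50, 4.31 and 4.11 in the CT0 mice and 3.84, 3.96 and 3.91 in the CT6 mice. Its night-day difference of 0.57 ± 0.08 did not pass (limma, adjusted p = 0.0593). Manf, a secreted stress protein of the same compartment, differed by 0.57 ± 0.08 (limma, adjusted p = 0.0593), with CT18 above CT12 by 0.93.

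The promoters of Hspa5 (chr2:34771840-34772089, plus strand) and Sdf2l1 (chr16:17132384-17132633, minus strand) are shown because the element of this pathway, the ER stress response element ERSE (CCAAT and CCACG separated by any 9 bases), was found in one and not in the other although their profiles had the same order. The capitals mark the match in Hspa5, which starts 65 bases before the RefSeq start (GRCm38.p6).
Hspa5: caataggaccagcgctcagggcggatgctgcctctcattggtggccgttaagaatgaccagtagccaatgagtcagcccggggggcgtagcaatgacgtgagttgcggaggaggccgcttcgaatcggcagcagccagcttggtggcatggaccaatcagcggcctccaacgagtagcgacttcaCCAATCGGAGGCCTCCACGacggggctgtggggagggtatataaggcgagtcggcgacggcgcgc
Sdf2l1: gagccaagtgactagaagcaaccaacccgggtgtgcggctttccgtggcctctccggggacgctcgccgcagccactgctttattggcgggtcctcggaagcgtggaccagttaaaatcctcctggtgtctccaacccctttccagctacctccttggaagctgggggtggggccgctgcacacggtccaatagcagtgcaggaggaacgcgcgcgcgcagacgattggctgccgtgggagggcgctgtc
Among 24 genes of the chaperone list with a window, 9 held the ERSE on either strand, against 0.113% of all windows. In Sdf2l1 these letters are not in this window.

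Among genes that respond to glucocorticoids, Tsc22d3 and Plin4 were higher at night. Of 28 measured, 22 had positive differences, against 43.7% of all genes, 2 were called higher (against 0.0291%) and none lower. The median was 0.24, or 0.22 without CT12 mouse 11, when Hif3a passed as well. The median difference was 0.42 between CT12 and CT0 and 0.10 between CT18 and CT6. However, 0 of 28 passed the limma F test within the phases (against 0.112% of all genes) and 0 differed between the opposite pairs (against 0.228%). Without CT12 mouse 11 these counts were 0 (against 0.0747%) and 3 (against 0.66%). Sgk1, a kinase of salt and stress signalling, differed by 0.94 (limma, adjusted p = 0.0668) with CT18 minus CT12 at -1.21. Hif3a, a hypoxia-inducible factor, differed by 1.14 ± 0.16 (limma, adjusted p = 0.0593, and 0.0498 without CT12 mouse 11), but its 3 probes gave differences of 0.06 to 1.19. Fkbp5, a co-chaperone of the glucocorticoid receptor, differed by 0.15 (limma, adjusted p = 0.888).

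Other lists held few or no calls. Of 25 clock-controlled outputs, 21 had positive differences, against 43.7% of all genes. Only Tsc22d3, which is also in the list above, was called (against 0.0291% of all genes called higher). Of 24 cytosolic heat shock proteins none was called, and the smallest p was that of the small heat shock protein Cryab (0.49 ± 0.09, limma, adjusted p = 0.132). Of 32 immediate-early genes only Maff was called (against 0.0291% of all genes). The count of positive differences in that list was 12 with all libraries (against 43.7% of all genes). It was 24 without CT12 mouse 11 (against 46.6%), so the direction of the list rests on that library. None of 22 glutamate receptor subunits, 12 GABA-A receptor subunits, 65 intellectual disability genes, 31 proteasome subunits, 26 cholesterol genes or 25 genes of cAMP, MAP kinase and CREB signalling was called in either fit. Their medians lay between -0.19 and 0.06, and between -0.05 and 0.05 without CT12 mouse 11. The lowest, that of the GABA-A subunits, went from -0.19 to -0.003 without that library. No member of the lists of adenosine metabolism (median 0.04, 13 genes), tRNA synthetases and amino acid response (0.06, 28 genes), extracellular matrix (-0.17, 18 genes) or cold-inducible RNA-binding proteins (-0.02, 4 genes) was called either. Of 21 genes of glucose metabolism, with a median of 0.01, Slc2a1 alone passed, and only without CT12 mouse 11 (against 0.054% of all genes called higher).

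**Figure D4:**
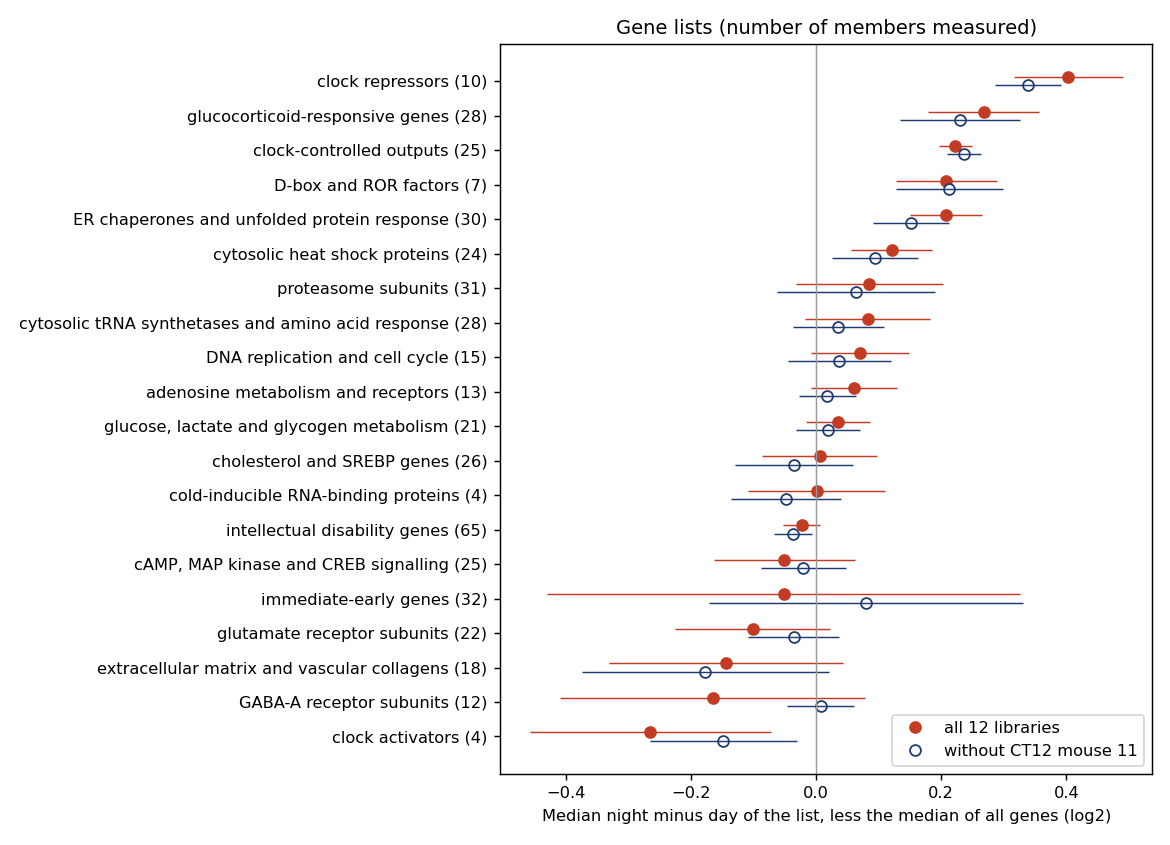
Median night minus day difference of each gene list less the median of all genes (log2), with all 12 libraries (filled) and without CT12 mouse 11 (open); the number of measured members is in brackets. Lines are 1 SD of the list's median among mice of the same time. Clock repressors lie farthest right at 0.40, and the lines of immediate-early genes are the widest.

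Without CT12 mouse 11, 14 further genes passed, 11 of them with a RefSeq symbol. The glucose transporter of the blood-brain barrier, Slc2a1, stood at 3.36 and 3.30 in CT12 mice 10 and 12 and 2.88, 3.03 and 2.91 in the CT18 mice, against 2.61, 2.70 and 2.59 in the CT0 mice and 2.50, 2.69 and 2.75 in the CT6 mice. Its difference was 0.50 ± 0.07 (limma, adjusted p = 0.0472), and every night value lay above every day value. The peptide hormone Apln (0.70, limma, adjusted p = 0.0378), the zinc finger gene Zbtb40 (0.59, adjusted p = 0.0154), the amino acid oxidase Lao1 (1.36, adjusted p = 0.0228), Tmem52 (0.91, adjusted p = 0.0259) and Hif3a were higher. Wfdc6b (-1.89, limma, adjusted p = 0.00666), Kif12 (-1.59, adjusted p = 0.0472), Nxnl2 (-1.11, adjusted p = 0.00811), the endothelial protocadherin Pcdh12 (-0.80, adjusted p = 0.0448) and 1700001L05Rik (-0.57, adjusted p = 0.0259) were lower. With all libraries the difference of 1700001L05Rik was -0.98 (limma, adjusted p = 0.572). Pcdh12 stood at -4.40 and -4.48 in CT12 mice 10 and 12. Its CT18 values (-3.71, -3.57 and -3.48) overlapped those of CT6 (-3.39, -3.51 and -3.38). Wfdc6b and Kif12 also met the condition for a held level. Of all libraries, the Wfdc6b probe was well above background on 1 of 6 night and 6 of 6 day arrays, that of Nxnl2 on 2 of 6 and 6 of 6, that of Kif12 on 4 of 6 and 6 of 6, and that of Lao1 on 6 of 6 and 1 of 6. Their differences rest partly on values that are no measured signal.

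Among genes lower at night that did not pass, Fabp7, a fatty acid-binding protein of astrocytes and neural progenitors, had 95.3% of the variation between its 4 time means lying between the phases. It stood at 1.77, 2.03 and 1.58 in the CT12 mice and 1.32, 1.65 and 1.79 in the CT18 mice, against 2.24, 2.61 and 2.46 in the CT0 mice and 2.37, 2.90 and 2.48 in the CT6 mice. The phases did not overlap. The difference was -0.82 ± 0.13 (limma, adjusted p = 0.0831, and 0.0597 without CT12 mouse 11), and 9 astrocyte markers had a median difference of 0.06. The transcripts ENSMUST00000099035 and ENSMUST00000099046, which no table used here names, both differed by -1.34 (limma, adjusted p = 0.0547 and 0.0668). Each had 99.6% of the variation between times lying between the phases, and both had lower values in 6 of 6 night mice than in any day mouse. Cd33, a sialic acid receptor of microglia, differed by -0.71 (limma, adjusted p = 0.069), with 10 microglial markers at a median of -0.15, or -0.04 without CT12 mouse 11.

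The calls depended on single libraries and on whether the fit held a term for the slide. Each of the 3 slides held 1 array of each circadian time, at the same position on every slide, so the effect of the array's place and that of the time of day cannot be told apart. With slide as a term, limma called 0 genes (lowest adjusted p 0.0548, 2844 genes at an unadjusted p of 0.05), and 12 genes when CT12 mouse 11 was left out as well. Because every slide held each time once, the slide term cannot change the night-day difference itself, which for Per2 was 0.66 in both fits. Within the slides the Per2 difference was 0.70, 0.70 and 0.59. Leaving out CT12 mouse 10, CT18 mouse 14 or 15, CT0 mouse 3 or any CT6 mouse left 0 calls in limma, with 1285 to 2601 genes at an unadjusted p of 0.05. Without the 5 libraries with high choroid plexus markers, CT12 is left with mouse 12 alone, so no calls are given for that fit. Leaving out CT12 mouse 12 left 5, CT18 mouse 16 left 6, CT0 mouse 1 left 1 and CT0 mouse 2 left 2.

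**Figure D5:**
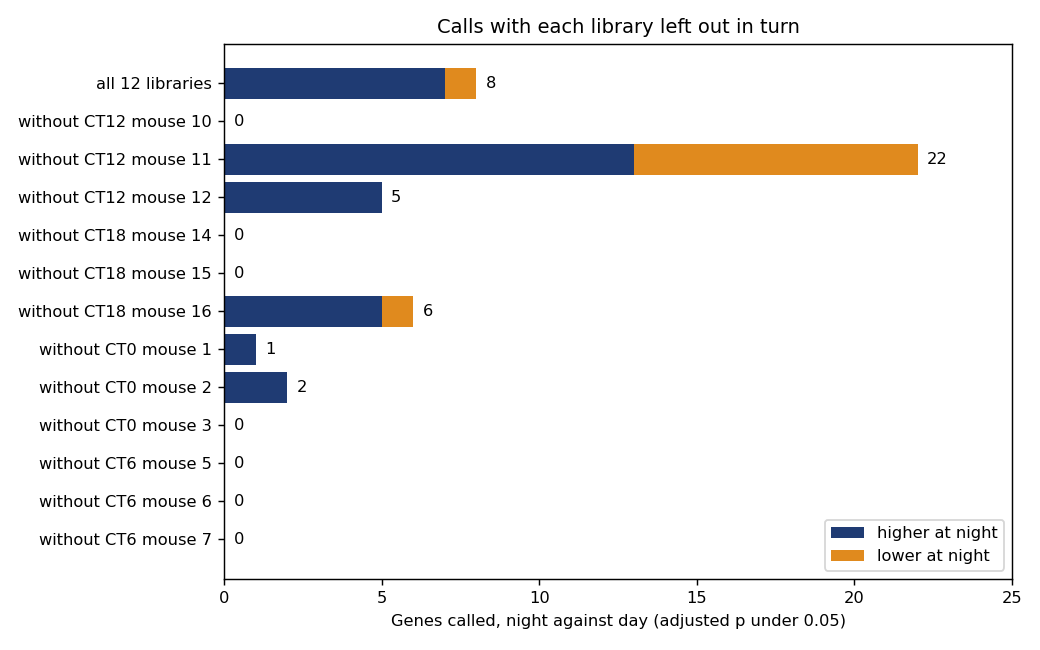
Number of genes called between night and day by limma (adjusted p under 0.05) with all 12 libraries and with each library left out, night libraries above day libraries. Blue bars count genes higher and orange bars genes lower at night; the count is 8 with all libraries, 22 without CT12 mouse 11 and 0 without any one of 7 others.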

How the data were processed

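Total RNA of the hippocampus was labelled with Cy3 and hybridised to 1-colour Agilent arrays, per the labels' protocols. Per the file headers, Agilent Feature Extraction made the deposited processed intensity of each spot, which is corrected for background within the array and not scaled between arrays. The deposited flags of each spot (other, 0 or 1) were used as the authors gave them. The deposited value table holds log2 values with equal column medians (5.36); the step that made it is not given in the sources used here, and it served as an alternative. Each of its columns correlated best with its own array (r = 0.990 for CT0 mouse 3, and from 0.9989 for the others). Local background was 100 on the array of CT0 mouse 1 and 25 to 37 on the others.

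From these files, log2 intensity minus the 75th percentile of the array was computed, without control and outlier spots. The filter on dim probes asked for signal well above background in every mouse of some circadian time, which 33966 of 55681 probes met; 146 probes with missing values were dropped. A gene was represented by its brightest probe on average. RefSeq (GRCm38.p6) gave names through the accession (26582 probes), the symbol (2602) or a synonym (492), while 26005 probes kept their original name. R 4.3.3 with limma 3.58.1 fitted 1 mean per circadian time, and the contrast was the mean of CT12 and CT18 minus that of CT0 and CT6. The test was checked on simulated data. Precision is set by the number of arrays.

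The members and gene lists were chosen with earlier results of these data known. Named genes were up to 15 called genes in each direction by size (up to 10 without CT12 mouse 11), filled to 10 by the smallest p, all clock genes, and of other lists the called members and the 2 with the smallest p. Some genes that the rule picks are not reported here. Genes named outside it were chosen after their values were seen. Alternatives were other scalings, background corrections, probe filters and variance models, a single mean per phase, slide as a term, and leaving out libraries.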

Additional observations from a re-analysis of the deposited data

Results flagged for a closer look

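In 7 of the named genes CT12 mouse 11 stood apart from the other 5 night libraries, by the gap test for single values at the 95% level. Its level was 0.491 for Arntl2, -5.93 for Npas2, 0.945 for Gabra2, 5.41 for Ptpn11, -1.37 for Dcx, -3.05 for 1700001L05Rik and -2.85 for Cpb2. It was the lowest night value for 5 of these genes and the highest for 2, and the marker values of this library are given in the report. Per2 was low in CT12 mouse 12 (-1.24) within the night phase, and Lama4 in CT18 mouse 16 (-2.14). In the day phase, Per3 was low in CT0 mouse 2 (-2.33), Arhgap33os high in CT0 mouse 3 (-4.08) and Adora2b high in CT0 mouse 1 (-0.228). In all, 12 of 150 phases tested, 2 for each of 75 named genes, held such a value, and chance alone marks about 1 in 20.

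For 9 named genes the night-day difference of CT12 and CT0 departed from that of CT18 and CT6 in limma at an adjusted p of 0.05. The first less the second was positive for Ciart (2.59), Dbp (1.83), Ada (1.73), Nr1d1 (1.63), Rbm3 (1.28) and Lrrc29 (1.09). It was negative for Sdf2l1 (-2.07), Hspa5 (-1.51) and Manf (-1.16). Ada, which breaks down adenosine, had CT12 above CT0 by 1.26 and CT18 minus CT6 at -0.47. Rbm3, a cold-inducible RNA-binding protein, had 0.89 and -0.39. The pairs also differ in hours of darkness, as given above, and what these genes share was not tested.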

How the results depend on the processing

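Among the main counts (8 genes called between the phases, 3 with a held level, 27 by the F test within the phases and 55 between the opposite pairs of times), the cause of a change was not tested. The 8 calls were 7 higher and 1 lower at night. The split was 13 and 9 without CT12 mouse 11, 6 and 6 with slide as a term as well, 136 and 148 with array weights, 1 and 1 with a single mean per phase, 8 and 3 with the median over probes, and 5 and 2 with probes above background on all arrays. Quantile normalization gave 5 called and 1 held, as did the deposited value table, again 5 and 1. Centring on the array median, which moved the median of all genes to 0.12, gave 6 called, 2 by the F test and 2 between the opposite pairs. Normexp background correction gave 19 called, 7 held, 78 by the F test and 109 between the pairs. With no filter on dim probes 36041 genes were tested, and 0 were called, 0 held, 0 by the F test and 15 between the pairs, with 2013 at an unadjusted p of 0.05. The median over the probes of a gene gave 11 called and 5 held. An intensity trend in limma gave 19 called, 5 held and 43 by the F test, and a robust trend 20, 6 and 44. Array quality weights, whose estimation did not converge, gave 284 called, 92 held, 3510 by the F test and 2151 between the pairs. A single mean per phase gave 2 called. Slide as a term gave 0 called and 0 held, 13 by the F test and 34 between the pairs, and with CT12 mouse 11 also left out 12, 3, 4 and 241. For the fit without the 5 libraries with high choroid plexus markers the 4 counts are not given, because CT12 is left with mouse 12 alone. A limit of 0.33 in place of 0.5 gave 1 held gene, Fam83d, whose day values are not well above background. A limit of 0.75 gave 5. Leaving out 1 library gave 0 to 22 called, 0 to 6 held, 0 to 135 by the F test and 4 to 159 between the pairs.

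The list medians below are less the median of all genes. Clock repressors (0.40) had 0.28 with normexp, 0.30 with array weights, and 0.64 and 0.25 within slides 2 and 3. Clock activators (-0.27) had -0.026 and -0.49 within slides 1 and 2. D-box and ROR factors (0.21) had 0.33, 0.30 and -0.075 within slides 1 to 3, and 0.10 without the libraries with high choroid plexus markers. Clock-controlled outputs (0.22) had 0.17 with quantile normalization, 0.16 with normexp, 0.17 with the deposited table, 0.31 with no filter, 0.17 with probes above background on all arrays, 0.13 without the libraries with high choroid plexus markers, and 0.28, 0.19 and 0.17 within the slides. They ranged from 0.12 to 0.24 with 1 library left out. Endoplasmic reticulum chaperones (0.21) had 0.27 and glucose metabolism (0.036) 0.10 with no filter. Glucocorticoid-responsive genes (0.27) had 0.42 and 0.17, and heat shock proteins (0.12) 0.030 and 0.21, within slides 2 and 3. Within slide 2, which held CT12 mouse 11, cold-inducible genes had 0.12, GABA-A subunits -0.43 and adenosine genes 0.22. These adenosine genes ranged from 0.018 to 0.16 with 1 library left out. Within slide 3, cAMP signalling had 0.067 and tRNA synthetases -0.024, and within slide 1 DNA replication had -0.0541. Intellectual disability genes (-0.023) had -0.060 with quantile normalization, -0.061 with the deposited table, 0.041 with no filter and 0.017 within slide 3, and ranged from -0.053 to -0.00023 with 1 library left out.

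Pairing by mouse number was not possible, because no number is shared between circadian times. Each slide held 1 array of each time, and the fit with slide as a block is given above: it left 0 calls. The limit of the data is 3 mice per time: leaving out 1 often removed all calls. Signal over background limits Fam83d, Maff, Lao1, Nxnl2, Wfdc6b and Arhgap33os, whose probes were not well above background on most arrays of one phase.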

Other observations

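The genes whose night values all lay above or below all day values are described here with no test, and those named were picked after their values were seen. Of the 87 genes with every night value lower, 57 had a RefSeq symbol. They included the matrix glycoprotein Tnc (-1.32), the muscarinic receptor Chrm4 (-0.78), the leukocyte phosphatase Ptprc (-0.50), the laminin chain Lama4 (-0.40), the receptor kinases Tek (-0.27) and Pdgfrb (-0.27), and Cd33. None of these passed in limma (adjusted p = 0.34 for Tnc, 0.29 for Chrm4, 0.20 for Ptprc, and 0.41, 0.41 and 0.40 for Lama4, Tek and Pdgfrb).

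Of the 78 genes with every night value higher, 63 had a RefSeq symbol. They included Gch1 (0.72), which starts the synthesis of the cofactor of monoamine production, Pglyrp1 (0.56), a peptidoglycan recognition protein, Slc2a1 (0.53), the lipid transporter Mfsd2a (0.49) and Sdc4 (0.45), a heparan sulfate proteoglycan. Gch1, Pglyrp1, Mfsd2a and Sdc4 did not pass in limma (adjusted p = 0.35, 0.13, 0.13 and 0.16). Of the marker lists, 10 microglial markers had a median of -0.15, or -0.04 without CT12 mouse 11. The 9 endothelial markers had one of -0.09, or -0.07 without that library. For 8 markers of meninges and fibroblasts it was -0.51, or -0.50 without that library, and 1 of 8 was above 0 with all libraries (against 43.7% of all genes). Their library medians ran from -1.05 to 0.49 at night and from -0.31 to 1.14 in the day. Whether the share of this tissue bears on the genes named here was not tested.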
